A study of Mus musculus with 7 samples.

Results

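Long-chain fatty acids reach the metabolism of a cell through proteins that take them up at the membrane, join them to coenzyme A and carry them through the cytosol. The 10 genes described here were picked by name, with earlier results of these data known: *Cd36*, 4 members of the Slc27 family (*Slc27a1*, *Slc27a2*, *Slc27a4* and *Slc27a5*) and 5 members of the Fabp family (*Fabp1*, *Fabp2*, *Fabp4*, *Fabp5* and *Fabp7*). All 10 were among the 23347 genes in the table of liver counts, and all 10 were among the 15179 genes with enough counts to be tested. RNA was taken from the livers of 7 male mice on a C57BL/6 background, which were put on the diet as young adults. The 4 controls were *B4galt1* flox/flox littermates, which the sample labels call WT and which carry both copies of *B4galt1* flanked by recombination sites but no Cre. The 3 others, labelled B4galt1-HKO and written hep-/- here, also carry *Alb*-Cre, a recombinase under the albumin promoter that is active in hepatocytes and leaves the gene in other liver cells. Every mouse of both groups had been fed for 15 weeks with CDAHFD, a high-fat diet that lacks choline, supplies L-amino acids in place of protein and brings on steatohepatitis, and chow-fed mice were not analysed here. Each library came from 1 mouse, so the differences below were set against the spread between mice.

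CD36 is a scavenger receptor that binds fatty acids and oxidized lipoproteins and is made by hepatocytes, macrophages, endothelial cells and adipocytes. The Slc27 genes encode the fatty acid transport proteins (FATPs), which also act as acyl-CoA synthetases, and so trap fatty acids in the cell by activating them. FABPs are small cytosolic proteins that hold a fatty acid in a barrel-shaped cavity, and each tissue has its own: FABP1 is the liver form, FABP2 the intestinal form, FABP4 the form of adipocytes and macrophages, FABP5 the epidermal form that macrophages also make, and FABP7 the brain form. Many of these genes are known targets of the peroxisome proliferator-activated receptors (PPARs), nuclear receptors that are switched on by fatty acids and pair with RXR.

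Total counts were 37838654 to 39668509 in flox/flox libraries and 30608271 to 34586588 in libraries labelled hep-/-, and levels are given as CPM, counts scaled to the size of the library, after TMM normalization, which sets the scale by the bulk of the genes. The 13 mitochondrially encoded genes took 3.88% to 7.996% of the counts in flox/flox livers and 14.4% to 22.6% in livers labelled hep-/-. The targeted gene, *B4galt1*, had 28.4, 23.9 and 53.7 CPM in hep-/- replicates 1 to 3 against 50.6 ± 2.01 CPM (SD, n = 4) in flox/flox livers, so replicate 3 went against its label, and counts over a whole gene cannot show whether a floxed part was removed. The group is therefore called by its label throughout. *Alb*, the defining hepatocyte marker, was at 57197 CPM or more in every library, and the markers of other cell types are given below.

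The 10 genes lay at very different levels. Because a longer gene collects more reads, levels were compared between genes as CPM per kilobase of the gene length that the counts and FPKM values share. *Fabp1* stood first in both groups, at 5613 CPM per kilobase in flox/flox livers and 5746 in livers labelled hep-/-, and *Slc27a2* second at 752 and 802. In flox/flox livers *Slc27a5* (194), *Fabp2* (155), *Fabp5* (123), *Cd36* (122), *Fabp4* (61.4), *Fabp7* (34.4), *Slc27a1* (9.52) and *Slc27a4* (7.34) followed, in mean CPM per kilobase over the 4 mice. The ranges of neighbours in this order did not overlap at 3 places, between *Fabp1* and *Slc27a2*, between *Slc27a2* and *Slc27a5*, and between *Fabp7* and *Slc27a1*, and all other neighbours overlapped. In livers labelled hep-/- the middle of the order was *Fabp2* (112), *Slc27a5* (110.0), *Fabp4* (67.7), *Fabp5* (61.6) and *Cd36* (48.9), so that *Cd36* moved from the sixth place to the seventh and *Fabp4* from the seventh to the fifth. *Fabp4* and *Fabp7*, known for tissues other than liver, had higher means than the transporters *Slc27a1* and *Slc27a4* in both groups, although in livers labelled hep-/- the ranges of *Fabp7* (10.3 to 35.3) and *Slc27a1* (7.53 to 27.8) overlapped.

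**Figure D1:**
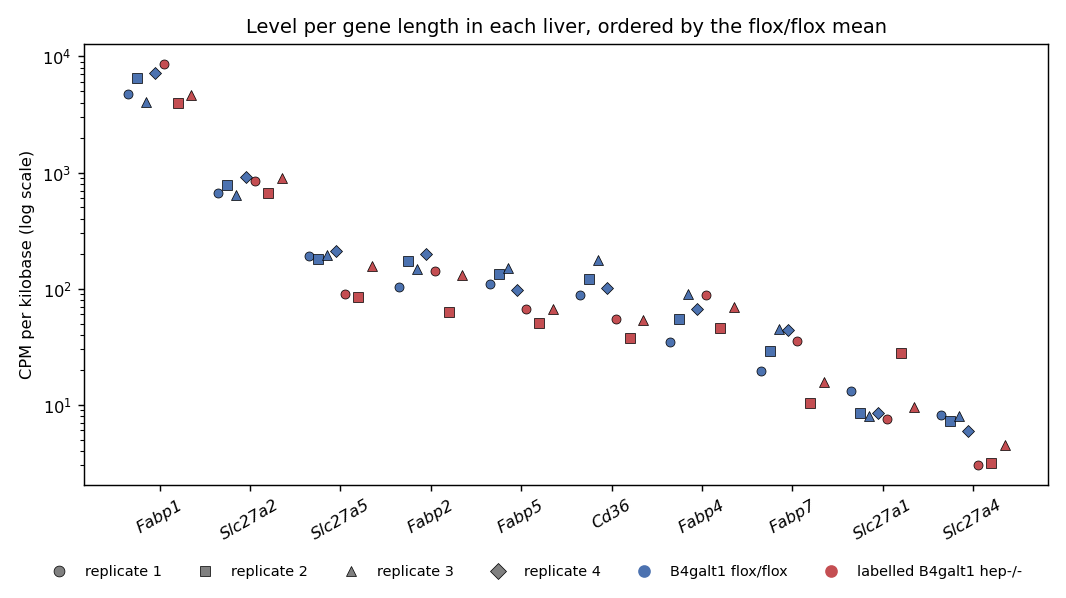
Level of each of the 10 genes in CPM per kilobase of gene length on a log axis, with 1 point per mouse. Fabp1 lies near 5613 and Slc27a4 near 7.34 in flox/flox livers.

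The comparison of the livers labelled hep-/- with the flox/flox livers was designed to ask which genes differ with a hepatocyte knockout of the galactosyltransferase under a diet that loads the liver with fat, and it is given here as a comparison of labels. *Cd36*, *Slc27a4*, *Fabp5* and *Slc27a5* were lower, by between 1.76-fold and 2.50-fold, and none of the 10 was higher. Lower means an adjusted p under 0.05 and a log2 fold change of more than 0.58 in size, by the quasi-likelihood test of edgeR, adjusted by Benjamini and Hochberg over all tested genes (written edgeR adjusted p below). Of all tested genes 7.83% were called lower and 8.0% higher by the same rule, against 4 and 0 of the 10, which were chosen with results in view. At an unadjusted p under 0.05 the counts were also 4 lower and 0 higher, where 16.1% and 16.8% of all tested genes passed. DESeq2 likewise called 4 lower and 0 higher, against 10.3% and 11.3% of all tested genes. In these 4 genes every liver labelled hep-/- lay below every flox/flox liver, as it did in 15.0% of all tested genes, and in none of the 10 did every liver lie above, as in 13.6% of all tested genes. The median log2 fold change was -0.61 over the 10 genes and 0.02 over all tested genes. *Fabp1* and *Slc27a2*, which had by far the highest levels, differed by less than the spread between mice, and the 4 lower genes all stood below these in the order of levels.

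**Figure D2:**
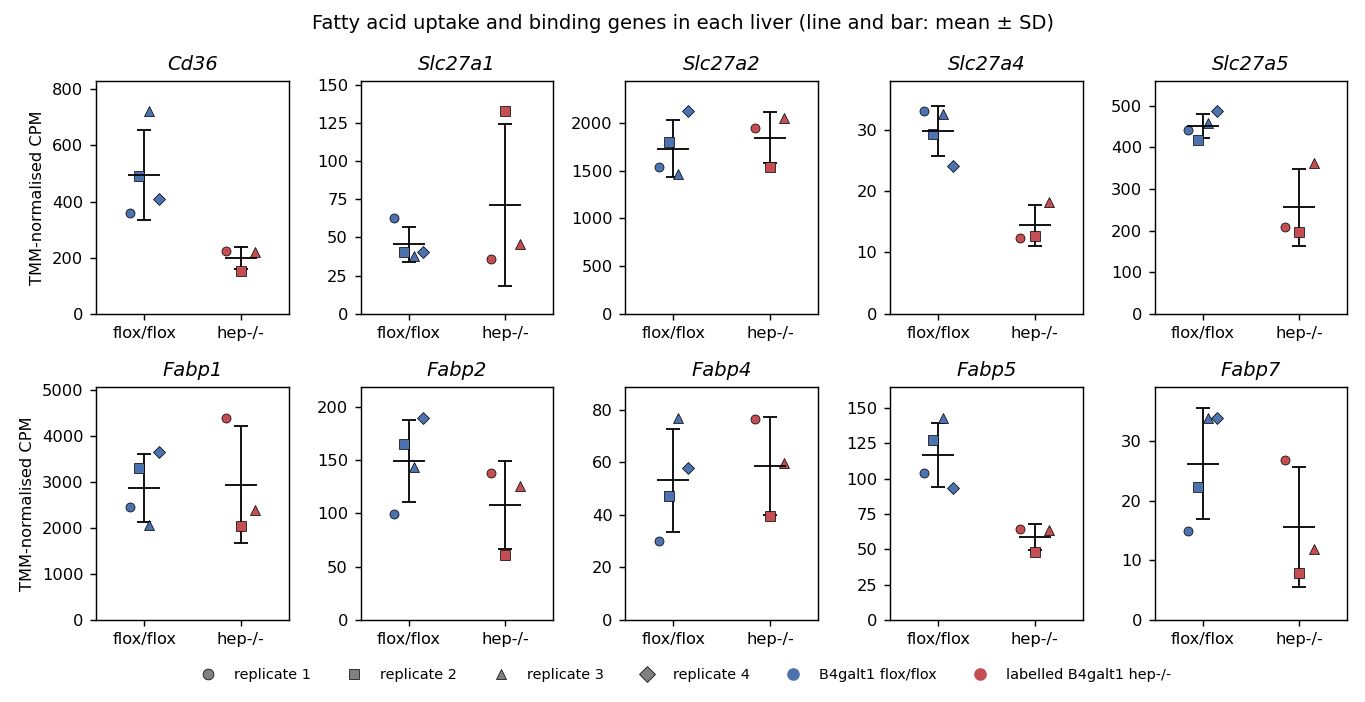
TMM-normalized CPM of each of the 10 genes in every mouse, 4 flox/flox and 3 labelled hep-/-, with a line at each group's mean. The groups do not overlap for Cd36, Slc27a4, Slc27a5 and Fabp5 and overlap for the other 6 genes.

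**Figure D3:**
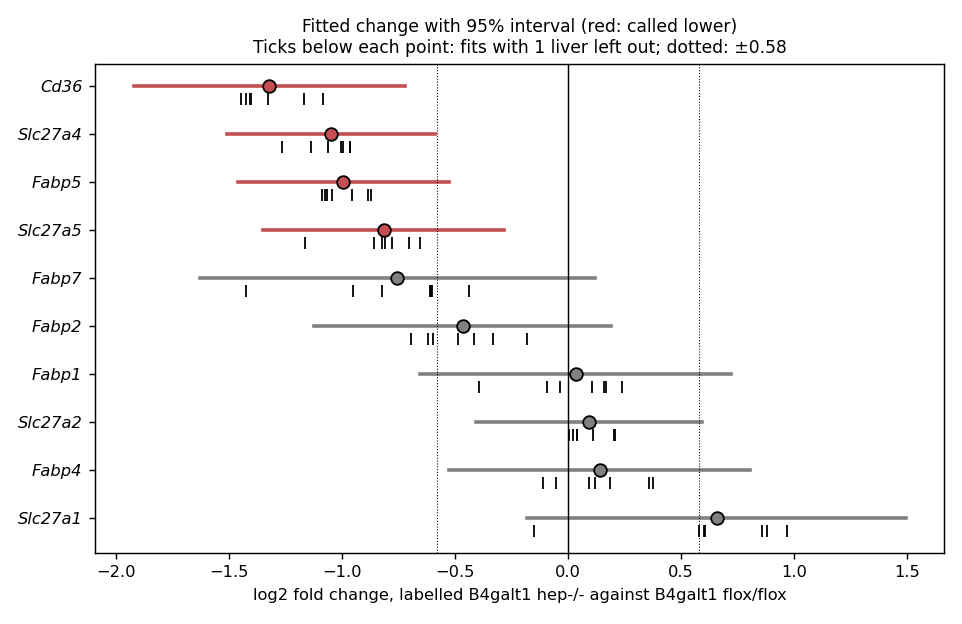
Log2 fold change (livers labelled hep-/- minus flox/flox) of each gene from edgeR, with its 95% interval. The intervals of Cd36 (-1.92 to -0.72), Slc27a4 (-1.51 to -0.59), Fabp5 (-1.46 to -0.53) and Slc27a5 (-1.35 to -0.28) lie below 0 and those of the other 6 genes hold 0.

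*Cd36* (NCBI gene 12491) had the largest decrease of the 10. Flox/flox replicates 1 to 4 gave 359, 492, 722 and 410 CPM, and replicates 1 to 3 labelled hep-/- gave 223, 153 and 219 CPM. Replicate 3 was high among the flox/flox livers, yet the lowest of them still exceeded every liver labelled hep-/-. The means were 496 ± 160 CPM (SD, n = 4) against 198 ± 39.3 CPM (SD, n = 3), a 2.50-fold difference. The log2 fold change was -1.32 (standard error 0.27, edgeR adjusted p = 0.0112). Without flox/flox replicate 3 it was -1.08 (edgeR adjusted p = 0.0241), and *Cd36* was called in all 19 alternatives tried and in each of the 7 fits with a mouse removed. The change was far beyond counting error, since no library held fewer than 5073 *Cd36* counts. By qPCR the authors report no significant difference in genes of fatty acid oxidation and transport, which their text does not name. Their primer list includes *Cd36* and *Fabp1*. As *Cd36* is made by several cell types and the RNA is that of the whole liver, fewer cells of a type and less *Cd36* RNA per cell cannot be told apart, which holds for every gene below.

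In the Slc27 family *Slc27a5* and *Slc27a4* were lower, and *Slc27a2* and *Slc27a1* were not called. *Slc27a2* encodes FATP2, a very long-chain acyl-CoA synthetase of liver and kidney, and it was the dominant transporter gene. It had 1534, 1797, 1468 and 2120 CPM in the flox/flox livers and 1947, 1542 and 2047 CPM in those labelled hep-/-, with means of 1730 ± 296 (SD, n = 4) and 1845 ± 267 (SD, n = 3). The values of the groups ran through one another. The log2 fold change was 0.09 (95% interval -0.41 to 0.59, edgeR adjusted p = 0.806), so that a 2-fold change in either direction lay outside the interval.

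*Slc27a5* encodes FATP5, a liver protein that also joins bile acids to coenzyme A. The flox/flox livers were close together at 442, 418, 458 and 487 CPM, and those labelled hep-/- lay lower and further apart at 209, 196 and 363 CPM. The highest of the latter, replicate 3, is the mouse whose *B4galt1* level was not lowered. The means of 451 ± 29.0 CPM (SD, n = 4) against 256 ± 93.0 CPM (SD, n = 3) differed 1.76-fold, and the log2 fold change was -0.82 (standard error 0.24, edgeR adjusted p = 0.0435). This call was the least firm of the 4. Without hep-/- replicate 3 the log2 fold change was -1.16 (edgeR adjusted p = 0.010), and in the 6 fits that left out any other mouse it was -0.86 to -0.66 and missed the threshold, with edgeR adjusted p-values from 0.0613 to 0.116.

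*Slc27a4* encodes FATP4, best known for fatty acid uptake in the intestine and for the skin barrier, and was the lowest of the 10 per kilobase. It had 33.0, 29.4, 32.6 and 24.2 CPM in flox/flox livers against 12.3, 12.6 and 18.3 CPM in livers labelled hep-/-, where replicate 3 was again the highest. The lowest flox/flox liver stood clear of all of these. Means were 29.8 ± 4.08 CPM (SD, n = 4) against 14.4 ± 3.34 CPM (SD, n = 3), and the log2 fold change of -1.05 (standard error 0.21, edgeR adjusted p = 0.00978) had the lowest p of the 10. It was called in all 19 alternatives, and it rested on 379 to 1435 counts per library.

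*Slc27a1* encodes FATP1, a transporter of muscle and fat that responds to insulin. In flox/flox livers it had 62.7, 40.2, 38.0 and 40.7 CPM, of which the first stood apart. In livers labelled hep-/- it had 35.9, 133 and 46.0 CPM, and the second of these was more than 2 times any other value. The log2 fold change of 0.66 (standard error 0.38, edgeR adjusted p = 0.255) therefore had a wide interval, -0.18 to 1.49, and without hep-/- replicate 2 it was -0.15 (edgeR adjusted p = 0.743). No direction can be given for this gene.

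The bases upstream of *Cd36* and *Slc27a4*, which were lower, are shown beside those of *Slc27a2* and *Fabp1*, the abundant genes that were not called, because the PPAR and RXR pair is known to bind a direct repeat of AGGTCA with 1 base between the copies. They are the 250 bases before the RefSeq start site of each gene in GRCm38.p6, on the strand of the gene (minus for *Cd36*, plus for the others), with AGGTCA on either strand (a single copy, TGACCT when read on the other strand) and GGGCGG on either strand (a GC box, CCGCCC on the other strand) in capitals.
Cd36 upstream, chr5:17835897-17836146: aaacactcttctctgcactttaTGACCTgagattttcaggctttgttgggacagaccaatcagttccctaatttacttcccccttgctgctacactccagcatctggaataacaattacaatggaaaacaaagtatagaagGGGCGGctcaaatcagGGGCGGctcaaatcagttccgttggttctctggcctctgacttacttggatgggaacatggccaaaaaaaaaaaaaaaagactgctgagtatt
Slc27a4 upstream, chr2:29802384-29802633: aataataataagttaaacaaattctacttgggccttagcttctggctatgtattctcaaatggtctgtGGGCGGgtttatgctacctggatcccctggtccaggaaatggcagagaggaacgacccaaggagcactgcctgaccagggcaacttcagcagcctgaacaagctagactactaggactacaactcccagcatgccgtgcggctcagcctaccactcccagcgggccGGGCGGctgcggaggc
Slc27a2 upstream, chr2:126552774-126553023: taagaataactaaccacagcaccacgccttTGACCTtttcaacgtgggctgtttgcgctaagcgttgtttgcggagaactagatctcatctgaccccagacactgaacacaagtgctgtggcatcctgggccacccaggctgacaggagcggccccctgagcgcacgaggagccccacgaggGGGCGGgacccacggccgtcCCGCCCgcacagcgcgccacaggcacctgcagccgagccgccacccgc
Fabp1 upstream, chr6:71199629-71199878: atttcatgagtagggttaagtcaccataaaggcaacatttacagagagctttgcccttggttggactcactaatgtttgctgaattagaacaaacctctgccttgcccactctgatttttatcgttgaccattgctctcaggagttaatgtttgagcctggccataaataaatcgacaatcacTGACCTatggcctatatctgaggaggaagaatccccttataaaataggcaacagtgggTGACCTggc
The *Cd36* stretch held a single copy of AGGTCA that begins at -228 from the start site and GC boxes at -109 and -93. Bases just after the start site were looked for in GENCODE transcripts of the same gene. They were found for *Slc27a4*, *Slc27a2* and *Fabp1* and not for *Cd36*, so the *Cd36* positions rest on the RefSeq start site alone. The *Slc27a4* stretch held GC boxes that begin at -182 and -16 from the start site and no single copy. The *Slc27a2* stretch held a single copy of AGGTCA at -220 and GC boxes at -68 and -48, and the *Fabp1* stretch held single copies at -67 and -9 and no GC box. Stretches of this length were at hand for 7 of the 10 genes and not for *Slc27a5*, *Fabp4* and *Fabp5*, so that of the 4 lower genes *Cd36* and *Slc27a4* alone could be read. Of the 7, 4 held a single copy of AGGTCA (*Cd36*, *Slc27a2*, *Fabp1* and *Fabp7*) and 4 a GC box (*Cd36*, *Slc27a1*, *Slc27a2* and *Slc27a4*) in at least 1 stretch. Counted by stretch, these were 4 and 5 of 9. Among 32851 such stretches of the mouse genome 14.02% held a single copy of AGGTCA and 32.7% a GC box. The whole direct repeat with every letter matching was in none of the 9 stretches and in 0.0335% of all. Repeats with a changed letter were not searched for. In the *Fabp1* stretch the copy at -67 is followed after 1 base by TGGCCT, which is TGACCT with 1 letter changed. The counts therefore do not show which stretches lack a site for the PPAR and RXR pair. These matches are of letters only, and more distant sequence was not searched.

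Of the binding proteins, the liver form did not pass the test and the epidermal form was lower. *Fabp1* (NCBI gene 14080) had 2452, 3315, 2075 and 3652 CPM in flox/flox livers and 4405, 2034 and 2387 CPM in livers labelled hep-/-. The highest and the lowest of the 7 values both belong to the latter group. With means of 2874 ± 734 CPM (SD, n = 4) against 2942 ± 1279 CPM (SD, n = 3) the log2 fold change was 0.03 (95% interval -0.65 to 0.72, edgeR adjusted p = 0.954), and its sign turned on the FPKM values and in some fits with a mouse removed.

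*Fabp5* (NCBI gene 16592) had 104, 127, 143 and 93.5 CPM in flox/flox livers. In livers labelled hep-/- it had 64.1, 48.3 and 63.9 CPM, all below the lowest flox/flox liver. The means were 117 ± 22.6 CPM (SD, n = 4) against 58.8 ± 9.09 CPM (SD, n = 3), and the log2 fold change was -0.99 (standard error 0.21, edgeR adjusted p = 0.0128). *Fabp5* was called in all 19 alternatives, with log2 fold changes of -1.09 to -0.87 over the 7 fits with a mouse removed. RefSeq lists a pseudogene of it, *Fabp5l2*, that is no row of the count table, and how reads that match several places were counted is not given in the sources used here, so its level is uncertain to that extent.

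*Fabp4*, the adipocyte and macrophage form, was not called. It had 30.2, 47.3, 77.1 and 57.9 CPM in flox/flox livers and 76.6, 39.5 and 59.7 CPM in livers labelled hep-/-, and the latter all lay within the range of the former. The means of 53.1 ± 19.7 CPM (SD, n = 4) against 58.6 ± 18.6 CPM (SD, n = 3) gave a log2 fold change of 0.14 (95% interval -0.52 to 0.81, edgeR adjusted p = 0.779). *Fabp5*, *Pmp2*, *Fabp9*, *Fabp4* and *Fabp12* lie in this order along chromosome 3 in the RefSeq table, with a non-coding gene and a pseudogene after *Fabp5*.

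*Fabp2*, the intestinal form, had the second highest mean of the Fabp genes per kilobase in both groups, although its range overlapped that of *Fabp5* in flox/flox livers. It had 99.2, 166, 144 and 190.3 CPM in flox/flox livers and 138, 60.9 and 126 CPM in livers labelled hep-/-. Replicate 2 was low in the latter group, and the other mice lay within the flox/flox range. The log2 fold change was -0.47 (standard error 0.30, edgeR adjusted p = 0.301), and the gene overlaps *4933405D12Rik* in RefSeq, whose reads cannot be told apart from its own unless strand was used in counting, which is not given in the sources used here. *Fabp7*, the brain form, had 14.8, 22.3, 34.0 and 33.8 CPM in flox/flox livers and 26.9, 7.84 and 11.9 CPM in livers labelled hep-/-. A single mouse, replicate 1, kept the groups overlapping. The log2 fold change was -0.76 (standard error 0.40, edgeR adjusted p = 0.211), and it passed in 1 fit, that without this mouse (-1.42, edgeR adjusted p = 0.0322).

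The make-up of each family was also read per mouse, as a description without a test. All 6 Slc27 genes, with *Slc27a3* and *Slc27a6*, summed to 963 ± 133 CPM per kilobase (SD, n = 4) in controls and 932 ± 138 (SD, n = 3) in those labelled hep-/-, and the 8 Fabp genes in the table, with *Fabp3*, *Fabp9* and *Fabp12*, to 5987 ± 1449 and 6009 ± 2569. Within the Slc27 sum, the share of *Slc27a2* was 77.8% ± 2.79 (SD, n = 4) in controls against 86.1% ± 2.83 (SD, n = 3) with the hep-/- label. The share of *Slc27a5* was 20.3% ± 2.42 (SD, n = 4) and 11.6% ± 2.73 (SD, n = 3). Per kilobase there were 3.51, 4.36, 3.25 and 4.41 *Slc27a2* for each *Slc27a5* in flox/flox livers and 9.41, 7.96 and 5.70 in livers labelled hep-/-, so that the groups did not overlap. *Fabp1* held 93.5% ± 2.11 (SD, n = 4) and 95.5% ± 1.05 (SD, n = 3) of the Fabp sum, which leaves the other forms in the last few percent. *Fabp5* exceeded *Fabp4* in every flox/flox liver, with ratios per kilobase of 3.13, 2.44, 1.69 and 1.46. In livers labelled hep-/- the ratios were 0.759, 1.11 and 0.972, near equal amounts of both. These ratios divide genes of 1 library by each other, so the scaling of the libraries does not enter, and the pairs were chosen after the values were seen.

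**Figure D4:**
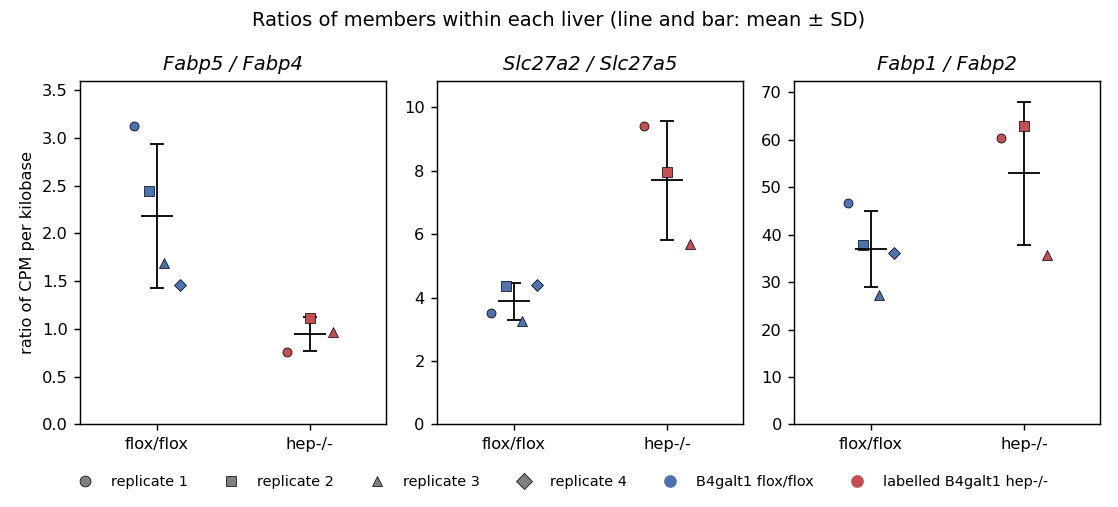
Ratio of CPM per kilobase of 3 pairs of genes in each mouse, with a line at each group's mean. The groups do not overlap for Slc27a2 over Slc27a5 (3.25 to 4.41 against 5.70 to 9.41) or for Fabp5 over Fabp4 (1.46 to 3.13 against 0.759 to 1.11), and they overlap for Fabp1 over Fabp2.

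Cell type markers are given here because several of the 10 genes are also made by cells other than hepatocytes. Their counts stand beside 7.83% called lower and 8.0% called higher among all tested genes. Of 14 macrophage markers 8 were called lower (*Adgre1*, *Cd68*, *Marco*, *Vsig4*, *Lyz2*, *Trem2*, *Gpnmb* and *Itgax*) and none higher, with 1634 to 3661 CPM in sum over the list in flox/flox livers and 804 to 894 CPM in livers labelled hep-/-. This count was 7 or 8 without flox/flox replicate 1 or 4 or hep-/- replicate 1 or 2, and 4 without flox/flox replicate 2 or 3 or hep-/- replicate 3 (*Adgre1*, *Cd68*, *Lyz2* and *Gpnmb* at least in each). *Adgre1*, which encodes the macrophage antigen F4/80, ran from 20.1 to 71.3 CPM in the former and from 7.70 to 12.7 CPM in the latter. The macrophage sum thus moved in the direction of *Cd36* and *Fabp5*, which macrophages make, and flox/flox replicate 3 was the highest mouse for the sum as well as for *Cd36*, *Fabp5* and *Fabp4*. *Fabp4*, which macrophages also make, did not differ beyond the spread between mice. Without flox/flox replicate 3 the log2 fold change of *Fabp5* was -0.88 (edgeR adjusted p = 0.0320). The flox/flox livers left in that fit had macrophage sums of 1634 to 2220 CPM, still above those labelled hep-/-. The part of macrophages in these differences was not tested.

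The remaining cell types moved less. At most 1 gene of each list was called, where 7.83% and 8.0% of all tested genes were called lower and higher. Of 11 hepatocyte markers 1 was called lower, *Cyp2e1*, and the list summed to 111219 to 155789 CPM in flox/flox livers and 115502 to 181431 CPM in livers labelled hep-/-. Of 12 endothelial markers 1 was called lower, *Kdr*, with sums of 178 to 530 CPM and 237 to 281 CPM. *Pecam1*, their defining marker, ran from 8.35 to 35.1 CPM and from 13.7 to 15.5 CPM. Of 8 stellate cell markers 1 was called higher, *Hand2*, with sums of 249 to 398 CPM and 248 to 417 CPM, and of 6 cholangiocyte markers none was called, with sums of 28.1 to 61.7 CPM and 38.0 to 121 CPM. *Kdr* and *Hand2* were each called in 2 of the 7 fits with a mouse removed, and in the other 5 they were -1.44 to -0.87 (edgeR adjusted p from 0.0747 to 0.104) and 0.52 to 0.79 (edgeR adjusted p from 0.0758 to 0.185). The 121 CPM came from hep-/- replicate 2, the mouse with the high *Slc27a1* value. Adipocyte markers were near 0, with 4 genes of the list summing to at most 0.198 CPM in any library, where 3 counts are 0.0756 to 0.0980 CPM. *Adipoq*, their defining marker, had no count in 6 of the 7 libraries, beside 30.2 CPM or more of *Fabp4* in all of them. Enterocyte markers, of which 3 of 6 were in the table and *Sis* was not, summed to 2.23 to 6.51 CPM and 2.11 to 11.6 CPM, well under the 60.9 CPM or more of *Fabp2*.

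**Figure D5:**
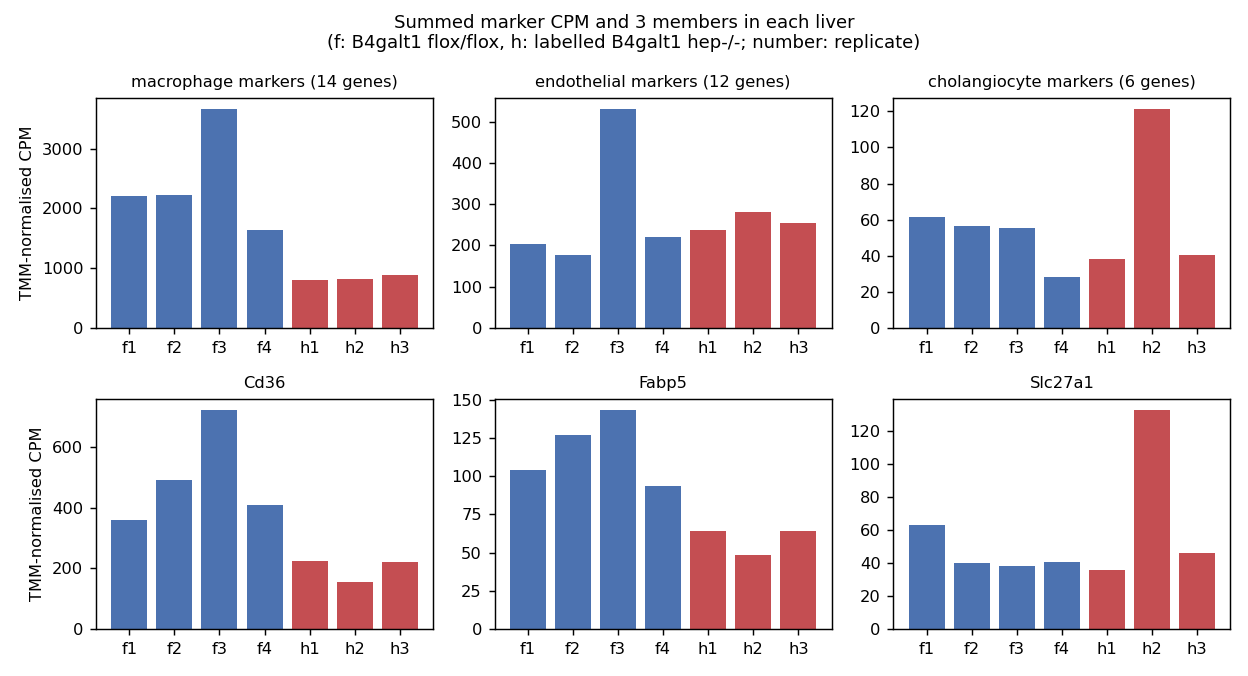
Summed CPM of the macrophage, endothelial and cholangiocyte markers, and CPM of Cd36, Fabp5 and Slc27a1, with 1 bar per mouse in each panel. The livers labelled hep-/- lie at 804 to 894 CPM of macrophage markers and the flox/flox livers at 1634 to 3661 CPM.

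Of the family genes outside the 10, *Slc27a3* went the other way at a low level. It encodes an acyl-CoA synthetase with little known transport function, and it had 1.98, 1.93, 1.05 and 1.44 CPM in flox/flox livers against 3.54, 5.01 and 3.52 CPM in livers labelled hep-/-. The log2 fold change of 1.33 (standard error 0.34, edgeR adjusted p = 0.0258) rested on 45 to 166 counts per library. It missed the threshold without flox/flox replicate 2, 3 or 4 or hep-/- replicate 2, at 1.14 to 1.43 (edgeR adjusted p from 0.0538 to 0.0864). Of the 4 such genes that could be tested it was the only one called. *Slc27a6* (-1.58, edgeR adjusted p = 0.181), *Fabp3*, the heart form (-1.03, edgeR adjusted p = 0.508), and *Fabp12* (-0.39, edgeR adjusted p = 0.704) lay under 1 CPM on average in both groups and are given as log2 fold changes. *Fabp3* was called in 1 fit, without hep-/- replicate 1, which left libraries with 1 and 0 counts in that group. *Fabp9* had 1 count in 1 library and was not tested, and *Fabp6* is no row of the table.

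Proteins that act beside these transporters were read from a list of 17 genes for fatty acid activation, membrane partners, acyl-CoA carriers and lipoprotein uptake. Of the 16 tested, 3 were lower and none higher, with a median log2 fold change of -0.43, where 7.83% and 8.0% of all tested genes were called lower and higher. They were *Got2* (-1.19, edgeR adjusted p = 0.00780), a mitochondrial aminotransferase that is also found at the plasma membrane and binds fatty acids, *Acsl4* (-1.14, edgeR adjusted p = 0.0153), which activates polyunsaturated fatty acids, and the HDL receptor *Scarb1* (-0.65, edgeR adjusted p = 0.0436), a scavenger receptor of the same family as CD36. *Got2* averaged 537 ± 38.1 CPM over the 4 flox/flox livers and 236 ± 58.4 CPM over the 3 labelled hep-/- (SD). *Lpl*, which frees fatty acids from lipoproteins, was at 508 ± 91.0 and 454 ± 28.9 CPM and was not called (-0.16, edgeR adjusted p = 0.626). *Got2* and *Acsl4* kept the call whichever mouse was left out, and *Scarb1* kept it in 1 of 7 such fits, that without hep-/- replicate 3, with -0.69 to -0.58 in the others.

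Among 16 nuclear receptors and other regulators of these genes, 2 were lower and 2 higher, and the median log2 fold change was 0.17, against 7.83% and 8.0% called among all tested genes. *Rxra*, the common partner of PPARs, was at 326 ± 40.02 CPM over the 4 flox/flox livers and 147 ± 17.6 CPM over the others (SD), with a log2 fold change of -1.15 (edgeR adjusted p = 0.00605). *Pparg*, the receptor of adipocytes that rises in fatty liver and is known to drive *Cd36* and *Fabp4*, was at 21.5 ± 5.67 CPM and 11.3 ± 2.59 CPM (-0.92, edgeR adjusted p = 0.0311). *Ppara*, the main PPAR of hepatocytes, was not called, at 274 ± 24.8 CPM and 239 ± 33.6 CPM (-0.19, edgeR adjusted p = 0.515). By western blot the authors report that PPARγ, the protein made from *Pparg*, was higher in hep-/- livers on this diet. They report by qPCR that the RNA of *Pparg* was lower. The protein was not measured here, so the lower *Pparg* RNA does not show that there was less of the receptor. The pregnane X receptor *Nr1i2* (0.81, edgeR adjusted p = 0.0132), under which *Cd36* is known to rise, and *Cebpb* (0.94, edgeR adjusted p = 0.0184) were higher. *Rxra* was called whichever mouse was left out. *Pparg* missed the threshold without flox/flox replicate 2 or 4 or hep-/- replicate 2 or 3 (-0.99 to -0.75), *Cebpb* without flox/flox replicate 2 or hep-/- replicate 1 (0.77 to 0.86) and *Nr1i2* without flox/flox replicate 2 (0.79).

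Of 20 genes known to respond to PPAR ligands, 4 were lower and 1 higher, with a median log2 fold change of -0.24, against the same 7.83% and 8.0%. Those lower were the peroxisomal enzyme *Ehhadh* (-1.66, edgeR adjusted p = 0.00572), the lipid droplet coat gene *Plin2* (-1.06, edgeR adjusted p = 0.0210), *Cpt1a* of mitochondrial fatty acid import (-0.87, edgeR adjusted p = 0.0254) and *Cyp4a14*, a fatty acid hydroxylase (-0.72, edgeR adjusted p = 0.0429). *Plin4*, another droplet coat gene, was higher (0.92, edgeR adjusted p = 0.0303). With any 1 mouse removed *Ehhadh* was still called. *Cyp4a14* was called in 1 of 7, that without hep-/- replicate 3 (-0.76 to -0.67 in the others). *Plin2* missed the threshold without flox/flox replicate 2 or hep-/- replicate 1 (-1.07 to -0.97), and *Cpt1a* without these or hep-/- replicate 2 (-0.91 to -0.70). *Plin4* missed it without flox/flox replicate 2 or 3 or hep-/- replicate 2 or 3 (0.69 to 0.88).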

How the data were processed

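Counts of 23347 genes in 7 livers were analysed. The authors extracted RNA with TRIzol and prepared libraries with a VAHTS Universal V6 kit, and the submitters' processing notes name fastp, HISAT2, HTSeq, DESeq2, R 3.2.0 and GRCm39. The annotation, the strand setting and the treatment of reads with several matches are not given in the sources used here. The authors deposited raw counts and FPKM values, the latter being counts over library total and over 1 length per gene (no gene of 13374 deviated by more than 1%). All columns of sample values were used. FPKM shares the total with mitochondrially encoded reads.

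Genes kept by filterByExpr (minimum count 10, minimum total 15) entered a quasi-likelihood fit with TMM factors and the group alone (edgeR 4.0.16, R 4.3.3), and p-values were adjusted by Benjamini and Hochberg over 15179 genes. Standard errors come from the F statistic. Genes named are the 10 members, the other Slc27 and Fabp genes, called genes of the lists, *Ppara*, *Pparg*, *Rxra*, *Got2*, *Lpl* and *Scarb1*, *B4galt1*, and cell type markers. Members and lists were chosen with earlier results of these data known, and 1 gene is left out of a list and not reported here. No member was removed by the filter, so the exact permutation test planned for such genes was not needed. The test was first run on simulated data. Libraries were checked in 21 pairs, and all differed by more than sampling noise (chi-square of at least 60.2 per gene). No label gives a batch. Alternatives included RLE or upper-quartile factors, DESeq2 1.42.0, other filters (at least 1 count in any library, at least 10 in every library), FPKM values with a pseudocount of 1 or 0.1 on the log2 scale (limma 3.58.1), voom with sample weights, no fold change threshold, no mitochondrial genes, the replicate number as a block, and each mouse left out. Leaving out flox/flox replicate 3 and hep-/- replicate 2 together was added after the data were seen. Motifs were searched in RefSeq promoter windows (GRCm38.p6), without the transcribed part.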

Additional observations from a re-analysis of the deposited data

Results flagged for a closer look

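Within the 4 flox/flox livers, 5 of 42 values examined held a mouse whose gap to the nearest other mouse passed Dixon's 95% critical value as a share of the group's range, which chance alone gives in about 1 of 20. *Slc27a1* was 62.7 CPM in replicate 1, with a gap of 0.891 of the range. Replicate 3 stood apart with *Adgre1* at 71.3 CPM (gap 0.894), *Pecam1* at 35.1 CPM (gap 0.876) and the summed endothelial markers at 530 CPM (gap 0.879). The cholangiocyte marker *Krt19* was lowest in replicate 4, at 1.41 CPM (gap 0.953). The group labelled hep-/- has 3 mice and was not examined this way. Without flox/flox replicate 3, *Cd36*, *Slc27a4* and *Fabp5* kept their calls, *Slc27a5* missed the threshold (-0.81, edgeR adjusted p = 0.0846) and *Fabp1* turned to -0.09.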

How the results depend on the processing

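*Cd36*, *Slc27a4* and *Fabp5* were called lower in every one of the 19 alternatives, *Slc27a5* in 11 of them, and no member was called higher in any. Of 190 values of the members under the alternatives 168 kept direction and call, 8 lost the call, 1 gained it and 13 turned sign, all 13 in genes that were not called. On all 3 FPKM settings *Slc27a2* was -0.027 and *Fabp1* -0.14, where the median of all genes shifted by up to -0.13 and 24.5% of calls were higher on log2(FPKM + 1), 23.1% on log2(FPKM + 0.1) and 17.6% over all genes above 0, against 50.5% with TMM. Among fits that left out a mouse, which spanned -0.39 to 0.24 for *Fabp1* and -0.15 to 0.97 for *Slc27a1*, *Fabp1* turned to -0.03, -0.09 and -0.39 (without flox/flox replicates 1 and 3 and hep-/- replicate 1), *Fabp4* to -0.05 and -0.11 (without flox/flox replicate 1 and hep-/- replicate 1) and *Slc27a1* to -0.15 (without hep-/- replicate 2). Without flox/flox replicate 3 and hep-/- replicate 2 together, *Slc27a1* was -0.22, *Fabp4* 0.59, *Slc27a5* missed the threshold at -0.65 (edgeR adjusted p = 0.149), the other 3 lower members kept their calls, and 1260 genes were called in all. All genes called numbered 2404, 1246 on log2(FPKM + 1) over all genes above 0, 3271 with DESeq2 and 885 to 2396 in the fits without 1 mouse, where flox/flox replicates 2 (885), 3 (1405) and 4 (1552) and hep-/- replicate 2 (1199) lowered the count most. *Slc27a3* lost its call in 4 of these fits, and *Fabp3* was called in 1, without hep-/- replicate 1. The replicate numbers do not pair the mice, since the correlations of same-numbered libraries were -0.337, -0.034 and 0.0777 and 1 of 6 libraries correlated best with its own number. With the replicate block 1225 genes were called, against 1552 in the same 6 libraries without it (the fit without flox/flox replicate 4), *Slc27a5* was -0.84 (edgeR adjusted p = 0.109), *Fabp12* turned to 0.19, and *Slc27a3*, *Scarb1*, *Pparg*, *Nr1i2*, *Plin2*, *Plin4*, *Cpt1a* and *Cyp4a14* also missed the threshold. In the same 6 libraries without the block *Slc27a5*, *Slc27a3*, *Scarb1*, *Pparg* and *Cyp4a14* missed it already, while *Nr1i2*, *Plin2*, *Plin4* and *Cpt1a* were called. The cause of these changes was not tested, apart from the fewer mice in these fits. *B4galt1* was -0.52 (edgeR adjusted p = 0.181), and it was called without hep-/- replicate 3 (-0.96, edgeR adjusted p = 0.0139) and on log2(FPKM + 1) (-0.67, limma adjusted p = 0.0398). *Plin4* lost its call on all 3 FPKM settings (limma adjusted p from 0.0755 to 0.245), *Slc27a3* and *Nr1i2* on the FPKM values of all genes above 0 (limma adjusted p = 0.0885 and 0.0759), and *Scarb1* and *Cyp4a14* under the filter of at least 1 count (edgeR adjusted p = 0.0528 and 0.0951). With 3 mice in a group, genes that were not called are not shown to be equal.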

Other observations

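The mouse labelled hep-/- replicate 2 was the lowest of its group for 8 of the 10 genes and the highest for 1, *Slc27a1*, while replicate 1 was the highest for 6. In flox/flox livers no mouse was the lowest for more than 4 genes. Replicate 2 was also the highest of its group for the summed cholangiocyte markers (121 CPM), the stellate markers (417 CPM) and the enterocyte markers (11.6 CPM), and had 115502 CPM in sum over the hepatocyte markers, the lowest of its group. These values are a description of 1 mouse, and no test was made of them.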
